A study of Mus musculus with 10 samples.

Results

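The interleukin 6 family was followed in subepithelial mesenchyme of the mouse trachea, the connective tissue beneath the airway lining. The genes were listed by name: 4 ligand genes (Il6, Il11, Lif and Osm), 5 receptor genes (Il6ra, Il11ra1, Il6st, Lifr and Osmr) and the feedback inhibitor gene Socs3. Probe sets that name a single symbol covered 9 of these 10 genes, out of 22180 genes measured in all, and no such probe set was matched to Il11ra1, which was not analysed here. The exposed group was 5 FVB/NJ mice that had breathed 235 ppm chlorine for 1 hr by whole-body exposure and whose tracheas were taken 4 days later. The other group was 5 unexposed FVB/NJ mice. All 10 mice were males, 9 weeks of age per the labels, of an inbred strain with no listed transgene or deletion. Mesenchyme was collected by laser capture from frozen, stained sections, sections of a mouse were pooled, and 1 array was hybridised per mouse. The series title names developing fibrotic lesions, and the question is how expression in that tissue differed after chlorine.

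Cytokines of this family signal through receptor complexes that share gp130, the protein encoded by Il6st. IL-6 and IL-11 first bind their own alpha receptors, Il6ra and Il11ra1, while LIF uses the LIF receptor with gp130 and oncostatin M uses the OSM receptor with gp130. The engaged complex activates JAK kinases and the transcription factor STAT3, which induces Socs3, whose product binds gp130 and damps the signal. Fibroblasts, epithelial cells and myeloid cells are known sources or targets of these cytokines in the airway, and the family is known for acute-phase, wound and matrix responses.

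Values are log2 intensities, so that 1 unit is a 2-fold difference, and since each gene has its own probes, the intensity of a gene is not set against that of another gene. Array medians lay between 5.10 and 5.18. A gene was called changed at an adjusted p under 0.05 in limma, with Benjamini-Hochberg adjustment over all 22180 genes. Exposed mice differed more among themselves (Pearson's r across genes 0.947 to 0.983) than unexposed mice did (0.982 to 0.986), and between the groups r was 0.928 to 0.972. Genes are not independent replicates, so these correlations only describe the arrays. The tissue label was checked against marker genes. The mean log2 value of 5 fibroblast genes was 10.27 to 10.94 in exposed mice and 10.02 to 10.29 in unexposed mice, and that of 6 pan-epithelial genes was 8.27 to 9.26 in exposed mice and 8.68 to 9.14 in unexposed mice. Genes of secretory epithelium, which mark cells of the airway lining and not mesenchyme, had a mean of 5.37 to 11.25 in exposed mice and 11.50 to 11.78 in unexposed mice. The value of 5.37 was that of exposed mouse 3, and the other exposed mice had 9.24 to 11.25. Apart from that mouse, these means lay far above the array medians. The mean of 5 smooth muscle genes was 10.50 to 11.20 in exposed mice and 10.40 to 11.30 in unexposed mice. That of 5 cartilage genes was 6.10 to 8.60 in exposed mice and 7.69 to 8.94 in unexposed mice. The collected tissue thus held RNA of the airway lining beside that of fibroblasts and smooth muscle, and the label does not describe mesenchyme alone.

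Of the 9 measured genes, Il6, Osmr and Socs3 were higher in exposed mice, none was lower, and 6 did not pass the test. Over all genes, 5.85% were called higher and 4.97% lower. For the same 3 genes every exposed mouse lay above every unexposed mouse, which held for 5.89% of all genes. The median log2 change was 0.20 over the 9 genes and -0.0035 over all genes. In tissue that holds several cell types, a change in the number of cells of a type and a change in RNA per cell cannot be told apart.

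**Figure D1:**
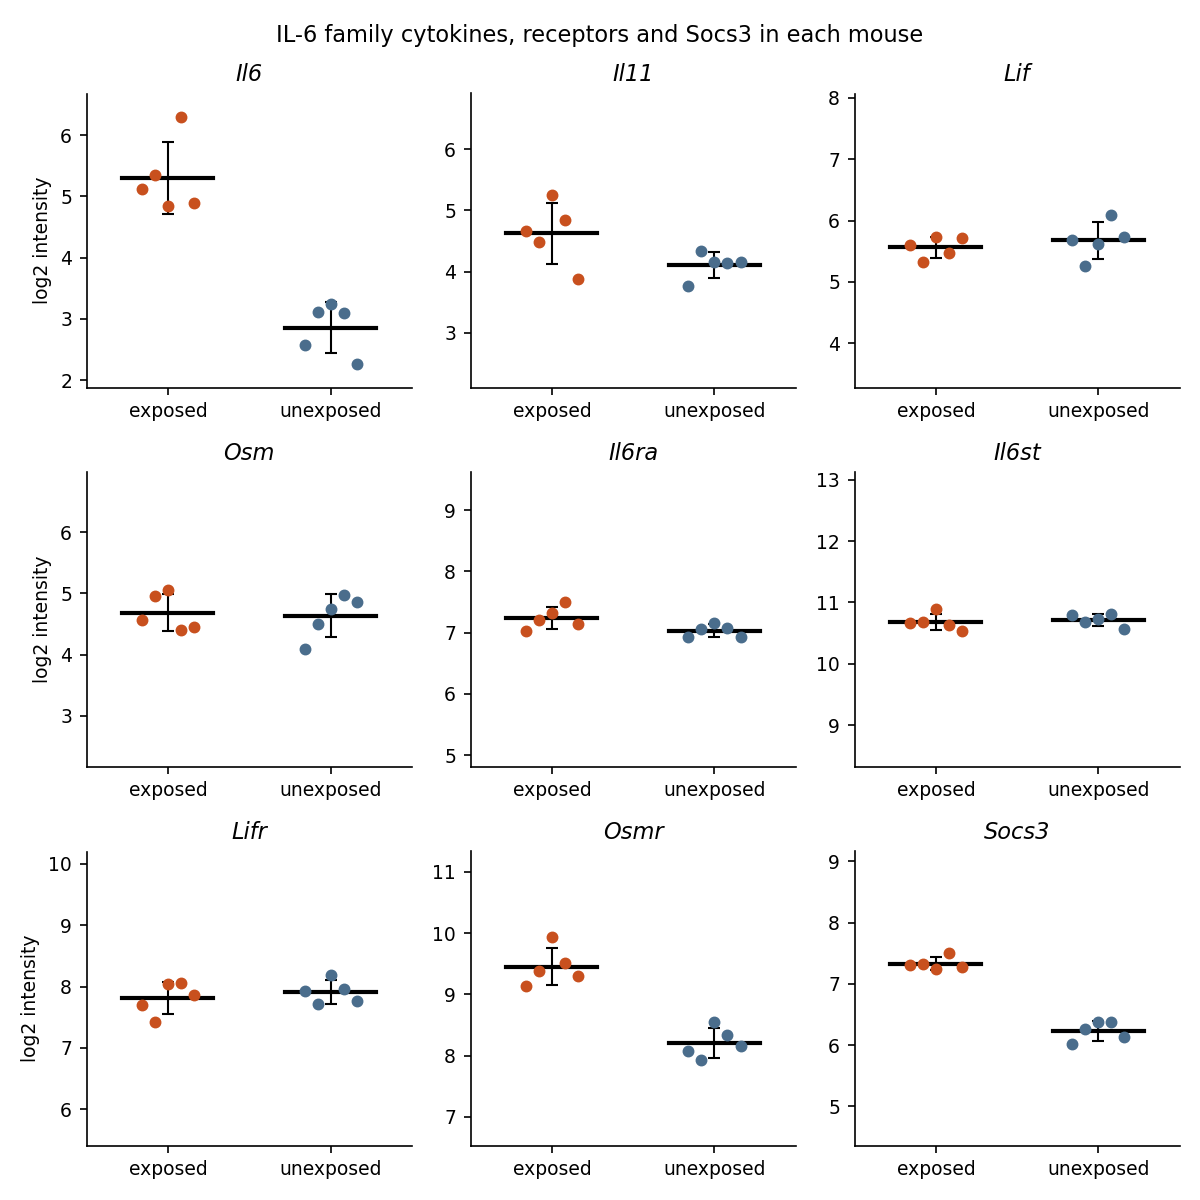
Log2 intensity (vertical axis, 4.8 units tall in every panel) of each measured gene in 5 exposed mice (left) and 5 unexposed mice (right); points are mice, horizontal lines group means and error bars SD. The groups are apart for Il6, Osmr and Socs3 and overlap for Il11, Lif, Osm, Il6ra, Il6st and Lifr.

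Il6 encodes interleukin 6, the ligand that gives the family its name. Its log2 intensity was 5.12, 5.35, 4.84, 6.29 and 4.90 in exposed mice 1 to 5, against 2.58, 3.11, 3.25, 3.09 and 2.27 in unexposed mice 1 to 5. Every exposed mouse lay above every unexposed mouse, and the gap between the lowest exposed and the highest unexposed value was wider than either group's SD. The group means were 5.30 ± 0.59 in exposed mice and 2.86 ± 0.42 in unexposed mice (SD, n = 5 each). Il6 was 5.43-fold higher in exposed mice (log2 change 2.44, SE 0.28, limma adjusted p = 0.000304), with a 95% interval of 3.55-fold to 8.30-fold. By size its rise ranked 42 among the 22180 genes. All 5 unexposed values, and those of exposed mice 3 and 5 (4.84 and 4.90), lay below the array medians. Exposed mouse 1 (5.12) lay within the range of those medians. Since the files give no detection limit, the fold itself is uncertain. Exposed mouse 4 stood highest, at 6.29, and without it the log2 change was 2.19 (adjusted p = 0.000303).

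The promoter of Il6 is shown because the gene had the largest change of the family. The RefSeq window (GRCm38.p6, chr5:30012864-30013163, plus strand) runs from 250 bases before to 50 bases after the annotated start. Capitals mark matches to a loose AP-1 motif and to a kappaB motif. The loose AP-1 motif, TGANTCA, leaves its middle base free, and its match begins 249 bases before the start. The match to the kappaB motif, GGGNNTTNCC, begins 44 bases before it.
Il6: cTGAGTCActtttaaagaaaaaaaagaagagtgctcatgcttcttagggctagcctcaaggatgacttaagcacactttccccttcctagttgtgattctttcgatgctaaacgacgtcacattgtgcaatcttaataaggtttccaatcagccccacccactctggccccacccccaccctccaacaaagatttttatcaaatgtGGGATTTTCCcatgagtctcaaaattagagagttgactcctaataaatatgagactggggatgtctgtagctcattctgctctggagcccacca
Among 32851 such windows of mouse genes, 7.81% held the loose AP-1 motif and 4.79% the kappaB motif on either strand. These motifs were chosen after the values were seen, and the matches, which do not overlap each other, are descriptions of letters and not evidence of binding.

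The other ligand genes did not pass the test. Il11, which encodes a cytokine made by stromal cells, had log2 values of 4.66, 4.49, 5.24, 4.84 and 3.88 in exposed mice, against 3.77, 4.33, 4.16, 4.14 and 4.16 in unexposed mice. In 4 of 5 exposed mice it lay above all unexposed mice, and in exposed mouse 5 it lay within their range. Its log2 change was 0.51 (SE 0.21, limma adjusted p = 0.164), with a 95% interval of 0.04 to 0.98 before adjustment for the number of genes. Without exposed mouse 5 the change was 0.70 and passed (adjusted p = 0.0274), the only case among 10 fits with a mouse left out, over which adjusted p ranged from 0.0274 to 0.308. The SD of Il11 was 0.50 in exposed mice and 0.21 in unexposed mice.

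Lif, which encodes leukemia inhibitory factor, had 5.60, 5.33, 5.72, 5.47 and 5.72 in exposed mice, against 5.68, 5.25, 5.61, 6.09 and 5.74 in unexposed mice. Osm, which encodes oncostatin M, a cytokine made mainly by myeloid and T cells, had 4.57, 4.95, 5.06, 4.40 and 4.45 in exposed mice, against 4.09, 4.50, 4.75, 4.97 and 4.86 in unexposed mice. For these 2 ligands the exposed values lay inside or close to the unexposed range. The log2 change of Lif was -0.11, with a 95% interval of -0.43 to 0.21 (adjusted p = 0.722), and that of Osm was 0.05, with an interval of -0.36 to 0.46 (adjusted p = 0.911). Changes larger than these bounds lie outside the intervals, and smaller ones in either direction remain possible. The sign for Osm turned without exposed mouse 2 or 3 or unexposed mouse 1 (-0.02, -0.04 and -0.09). Il11 and Osm had group means below the array medians in exposed mice as in unexposed mice.

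**Figure D2:**
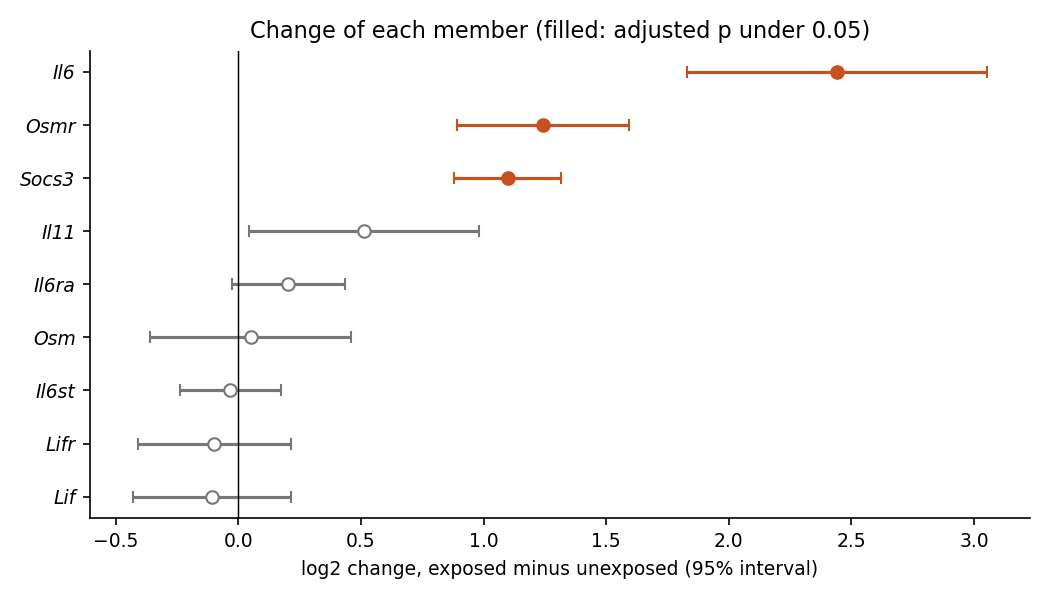
Log2 change (horizontal axis, exposed minus unexposed mice, n = 5 each) of the 9 measured genes with its 95% interval from limma; filled points passed an adjusted p under 0.05. Il6 (2.44), Osmr (1.24) and Socs3 (1.10) are to the right, and the intervals of Il6ra, Osm, Il6st, Lifr and Lif include 0.

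Among receptors, Osmr alone was called. Osmr encodes the OSM-specific chain, which also pairs with the IL-31 receptor. Its log2 intensity was 9.14, 9.39, 9.93, 9.51 and 9.30 in exposed mice, against 8.08, 7.93, 8.56, 8.34 and 8.15 in unexposed mice. All 5 exposed mice were above all 5 unexposed mice, with exposed mouse 3 highest. The means were 9.45 ± 0.30 in exposed mice and 8.21 ± 0.24 in unexposed mice (SD, n = 5 each), a 2.37-fold rise (log2 change 1.24, SE 0.16, limma adjusted p = 0.000614, 95% interval 1.86-fold to 3.02-fold).

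The Osmr window (GRCm38.p6, chr15:6874264-6874563, minus strand) is shown beside that of Il6, since both genes rose. Its capitals mark a match to the loose AP-1 motif that begins at base 4 after the start.
Osmr: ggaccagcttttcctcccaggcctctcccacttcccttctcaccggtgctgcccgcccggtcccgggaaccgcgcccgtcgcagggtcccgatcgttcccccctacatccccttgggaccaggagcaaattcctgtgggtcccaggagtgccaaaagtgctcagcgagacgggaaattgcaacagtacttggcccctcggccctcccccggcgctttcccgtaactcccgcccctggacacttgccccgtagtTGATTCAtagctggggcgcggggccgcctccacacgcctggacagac
The loose AP-1 motif was present in windows of 4 of the 9 family genes that had a window, and Il11 and Lif, which were not called, were among them. Its free base N was G for Il6 and Il11, C for Lif and T for Osmr. Read on the opposite strand, the Lif site TGACTCA is TGAGTCA, so Il6, Il11 and Lif held the same site. The Osmr site, TGATTCA, differed from it on either strand, and would not match if the middle base had to be G or C. The kappaB motif was present for Il6 alone.

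The shared chain and the other receptors did not pass. Il6st, which encodes gp130, had 10.67, 10.68, 10.90, 10.63 and 10.54 in exposed mice, against 10.79, 10.68, 10.73, 10.82 and 10.56 in unexposed mice. The groups lay on top of each other, and the 95% interval of the log2 change, -0.24 to 0.17, was the narrowest of the family (change -0.03, SE 0.09, limma adjusted p = 0.885). Lifr, which encodes the chain shared by LIF, cardiotrophin and ciliary neurotrophic factor complexes, had 7.70, 7.41, 8.04, 8.05 and 7.86 in exposed mice, against 7.94, 7.71, 8.19, 7.96 and 7.76 in unexposed mice. Its log2 change was -0.10, with an interval of -0.41 to 0.21 (adjusted p = 0.743).

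Il6ra, the alpha receptor for IL-6, had 7.02, 7.20, 7.32, 7.50 and 7.15 in exposed mice, against 6.93, 7.07, 7.16, 7.08 and 6.93 in unexposed mice. In 3 of 5 exposed mice it exceeded every unexposed mouse, and the log2 change was 0.20 (SE 0.10, limma adjusted p = 0.267), with an interval of -0.03 to 0.43.

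Whether receptors and ligands changed unequally was tested on the log2 difference between 2 genes within each mouse, where only the shift between groups is read. Of 5 planned pairs, 4 could be computed, and p was adjusted over these 4. Osmr minus Lifr was 1.43 to 1.97 in exposed mice and 0.14 to 0.39 in unexposed mice, so that Osmr rose 2.53-fold relative to Lifr (difference 1.34, 95% interval 1.04 to 1.64). Relative to Il6st, Osmr rose 2.42-fold (difference 1.27, interval 0.95 to 1.60), with -1.53 to -0.97 in exposed mice and -2.75 to -2.18 in unexposed mice. Relative to Il11, Il6 rose 3.81-fold (difference 1.93, interval 1.11 to 2.75), with -0.40 to 1.45 in exposed mice and -1.89 to -0.91 in unexposed mice. For each of these 3 pairs the groups did not overlap, and the two-sided exact permutation p was 0.00794, the smallest that 252 relabellings of 10 mice can give (adjusted p = 0.0106). Osmr, Il6st and Lifr differences share values of Osmr, so they are not separate lines of evidence. In each of the 3 pairs the gene that rose was already called by itself and its partner was not, so these p-values partly restate the calls. The family members were chosen with earlier results of these data known. Lif minus Osm shifted by -0.16 (interval -0.66 to 0.34, exact permutation p = 0.484), with 0.38 to 1.27 in exposed mice and 0.75 to 1.59 in unexposed mice.

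**Figure D3:**
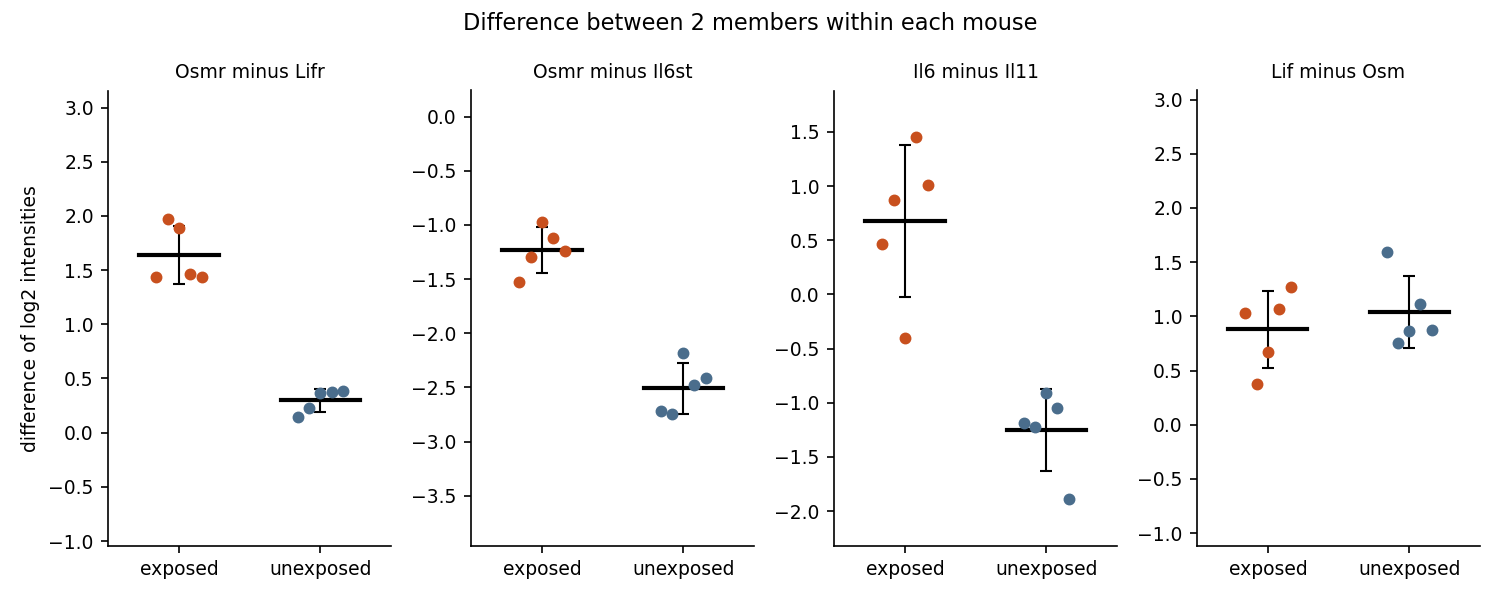
Difference of log2 intensities between 2 genes within a mouse (vertical axis, 4.2 units tall in every panel) in 5 exposed mice (left) and 5 unexposed mice (right); lines are means and error bars SD. Exposed mice are above unexposed mice in the first 3 panels, and the groups overlap for Lif minus Osm.

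Socs3, the feedback inhibitor, had the smallest SD in exposed mice among the 9 genes followed, but it alone was a mean of 2 probe sets. Its log2 intensity, the mean of 2 probe sets, was 7.31, 7.32, 7.25, 7.50 and 7.28 in exposed mice, against 6.02, 6.26, 6.37, 6.39 and 6.13 in unexposed mice. The groups did not overlap, and the exposed SD of 0.10 was smaller than the unexposed SD of 0.16. The means of 7.33 in exposed mice and 6.23 in unexposed mice (n = 5 each) differed 2.14-fold (log2 change 1.10, SE 0.10, limma adjusted p = 7.85e-05, 95% interval 1.84-fold to 2.49-fold). Both probe sets rose, by 1.38 (adjusted p = 8.2e-05) and 0.82 (adjusted p = 0.000657), and in each the groups did not overlap. The probe set with the larger change had 7.80 to 8.28 in exposed mice and 6.46 to 6.88 in unexposed mice, and the other had 6.53 to 6.73 in exposed mice and 5.54 to 6.06 in unexposed mice. By itself the probe set with the larger change had an SD of 0.20 in exposed and in unexposed mice. The other had an SD of 0.09 in exposed mice and 0.20 in unexposed mice.

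The Socs3 window (GRCm38.p6, chr11:117969317-117969616, minus strand) is shown because STAT3 is known to act on this promoter, and its capitals mark a match to the palindromic STAT motif TTCNNNGAA, which begins 154 bases before the start.
Socs3: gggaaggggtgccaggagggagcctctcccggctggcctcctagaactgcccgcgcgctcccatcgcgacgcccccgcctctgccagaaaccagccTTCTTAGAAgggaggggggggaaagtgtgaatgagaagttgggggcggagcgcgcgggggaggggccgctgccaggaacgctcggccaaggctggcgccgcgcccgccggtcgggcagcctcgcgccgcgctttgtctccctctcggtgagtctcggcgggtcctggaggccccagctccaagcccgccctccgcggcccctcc
Of the 9 family genes with a window, 12 windows in all, Socs3 was the only one with this motif, which was present in 8.30% of the 32851 windows. The match does not show that a factor was bound in these tissues, and a window without it says only that these letters are not there.

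The 5 exposed mice stood in the same order for Il6 and for the mean of the 2 Socs3 probe sets, and in another order for Osmr. Of the 2 Socs3 probe sets, only the one with the larger change had that order. In the other, exposed mouse 5 was highest (6.733, beside 6.730 in mouse 4) and exposed mouse 2 was lowest (6.532). Exposed mouse 4 was highest for Il6 and Socs3, at 3.43 and 1.27 log2 units above the unexposed mean. Exposed mouse 3 was the lowest of its group for Il6 (1.98 above that mean) and for Socs3 (1.01), and it was the highest for Osmr (1.72), Il11 (1.13) and Osm (0.42). With 5 mice per group these orders are given as a description.

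**Figure D4:**
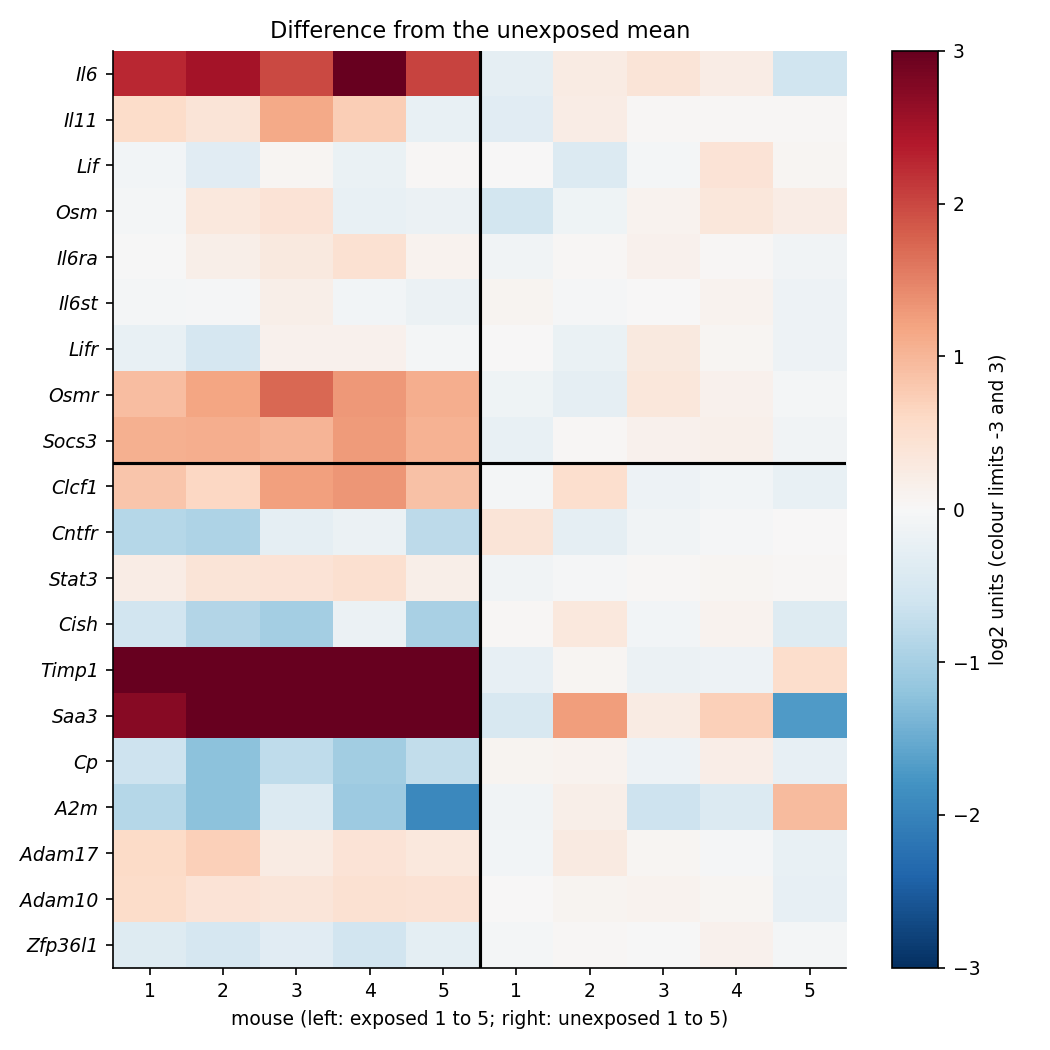
Log2 difference from the unexposed mean (colour, limits -3 and 3) for the 9 family genes (above the line) and 11 genes named from the pathway lists (below it) in 5 exposed mice (left) and 5 unexposed mice (right). The rows of Il6, Osmr, Socs3, Clcf1, Timp1 and Saa3 are red in all exposed mice, while those of Il6st, Lif and Lifr are near white in all mice.

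The genes with the most similar profiles were found by the root mean square difference over 10 mice, with each gene taken relative to its unexposed mean and 19394 genes compared. Nearest to Il6 were Ereg, an EGF receptor ligand (0.39 log2 units), Ifi202b, an interferon-inducible p200 gene (0.40), and Serpinb5, an epithelial serpin (0.40). Nearest to Osmr were Inhba, the activin A subunit (0.14), the necroptosis kinase gene Ripk3 (0.15) and the Golgi mannosidase gene Man2a1 (0.15). Nearest to Socs3 were Phgr1 (0.14), Man2a1 (0.17) and the fatty acid transport family gene Slc27a3 (0.17). Their log2 changes were 0.97 to 2.44, a range that follows from choosing them for likeness to called genes over the same mice.

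Other ligands and receptors of the family were taken from a list of 12 genes, of which 9 were measured. Clcf1 rose, Cntfr fell and 7 did not pass, with a median log2 change of -0.09. Each call was 11.1% of the list, beside 5.85% of all genes called higher and 4.97% called lower. Clcf1, which encodes a ligand that signals through the ciliary neurotrophic factor receptor, gp130 and LIFR, had 6.91, 6.71, 7.31, 7.40 and 6.97 in exposed mice, against 6.59 in unexposed mouse 2 and 5.88 to 6.04 in the other unexposed mice. The groups did not overlap, and the rise was 1.96-fold (log2 change 0.97, SE 0.17, limma adjusted p = 0.0036). Cntfr, the alpha receptor of that complex, had 5.90, 5.82, 6.49, 6.57 and 5.97 in exposed mice, against 7.13, 6.48, 6.65, 6.72 and 6.77 in unexposed mice. It fell by 0.60 log2 units (SE 0.17, adjusted p = 0.0483), and the groups overlapped. Leaving out exposed mouse 3 or 4 kept this call, and leaving out any other mouse ended it, with adjusted p between 0.0287 and 0.111.

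Of 12 measured kinases, STATs and adaptors that carry the signal, Stat3 rose, none fell and 11 did not pass (median 0.05). This share called higher, 8.3%, is near the 5.85% of all genes. Stat3 had 8.95, 9.09, 9.12, 9.19 and 8.89 in exposed mice, against 8.60, 8.68, 8.76, 8.77 and 8.76 in unexposed mice. The groups were apart but the difference was small, 1.26-fold (log2 change 0.33, SE 0.09, limma adjusted p = 0.0332), and the call was kept when exposed mouse 1 or 5 was left out and ended by leaving out any other mouse (adjusted p between 0.0322 and 0.0833). Jak1 and Jak2, the kinases bound to gp130, changed by 0.06 and -0.12 (adjusted p = 0.779 and 0.444).

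Of 12 other inhibitors of cytokine signalling, none rose, Cish fell and 11 did not pass (median -0.02). The share called lower was 8.3%, near the 4.97% of all genes. Cish, an inhibitor best known as a STAT5 target, had 5.74, 5.43, 5.29, 6.12 and 5.34 in exposed mice, against 6.34, 6.63, 6.23, 6.41 and 5.93 in unexposed mice. The groups overlapped through exposed mouse 4, and the fall was 0.73 log2 units (SE 0.18, limma adjusted p = 0.0223). Leaving out exposed mouse 2, exposed mouse 5, or unexposed mouse 1, 2 or 4 ended the call, with adjusted p between 0.00652 and 0.0564 over 10 such fits. Socs1, the closest relative of Socs3 in the list, changed by 0.36 with overlapping groups (adjusted p = 0.167).

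Known STAT3 and acute-phase targets moved in both directions. Of 38 measured genes, 11 rose (28.9%, beside 5.85% of all genes), 5 fell (13.2%, beside 4.97%) and 22 did not pass, with a median log2 change of 0.18. Because the list was chosen with earlier results of these data known, these shares are descriptions and were not tested. Timp1, a metalloproteinase inhibitor induced by IL-6 and oncostatin M, had 10.46, 10.82, 11.03, 11.06 and 10.08 in exposed mice, against 6.78, 7.07, 6.84, 6.86 and 7.53 in unexposed mice. It had the largest change of the list (log2 change 3.67, SE 0.21, limma adjusted p = 5.72e-06). Saa3, an acute-phase apolipoprotein made outside the liver in mice, had 8.79, 9.12, 9.54, 9.10 and 9.36 in exposed mice, against 5.58, 7.32, 6.31, 6.78 and 4.37 in unexposed mice. No exposed mouse of either gene lay within the unexposed range, and the log2 change of Saa3 was 3.11 (SE 0.45, adjusted p = 0.00117). The other rises, named after their values were seen, were Ccl2 (2.26), Itih4 (2.05), Lrg1 (1.62), Serpina3n (1.48), Il4ra (1.14), Tnfaip6 (0.94), Bcl3 (0.83), Pim1 (0.72) and Myc (0.70), with adjusted p of 0.000499 to 0.0116.

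Among the falls, Cp, which encodes the copper-carrying plasma protein ceruloplasmin, had 8.67, 8.05, 8.54, 8.25 and 8.55 in exposed mice, against 9.36, 9.40, 9.14, 9.49 and 9.04 in unexposed mice. Every exposed value lay below every unexposed value, and the fall was 0.88 log2 units (SE 0.14, limma adjusted p = 0.00196). A2m, which encodes a broad protease inhibitor, changed by -1.11 (SE 0.32, adjusted p = 0.0461) with overlapping groups. Its call was kept only when exposed mouse 1, exposed mouse 3 or unexposed mouse 3 was the mouse left out, with adjusted p between 0.0253 and 0.0984 over the 10 fits. Vegfa (-0.76), Lbp (-0.52) and Bcl6 (-0.37) were also called lower and were named after their values were seen. Leaving out exposed mouse 4 or unexposed mouse 1 or 4 left 2 genes of the list called lower, and leaving out exposed mouse 5 or unexposed mouse 2 or 5 left 3.

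**Figure D5:**
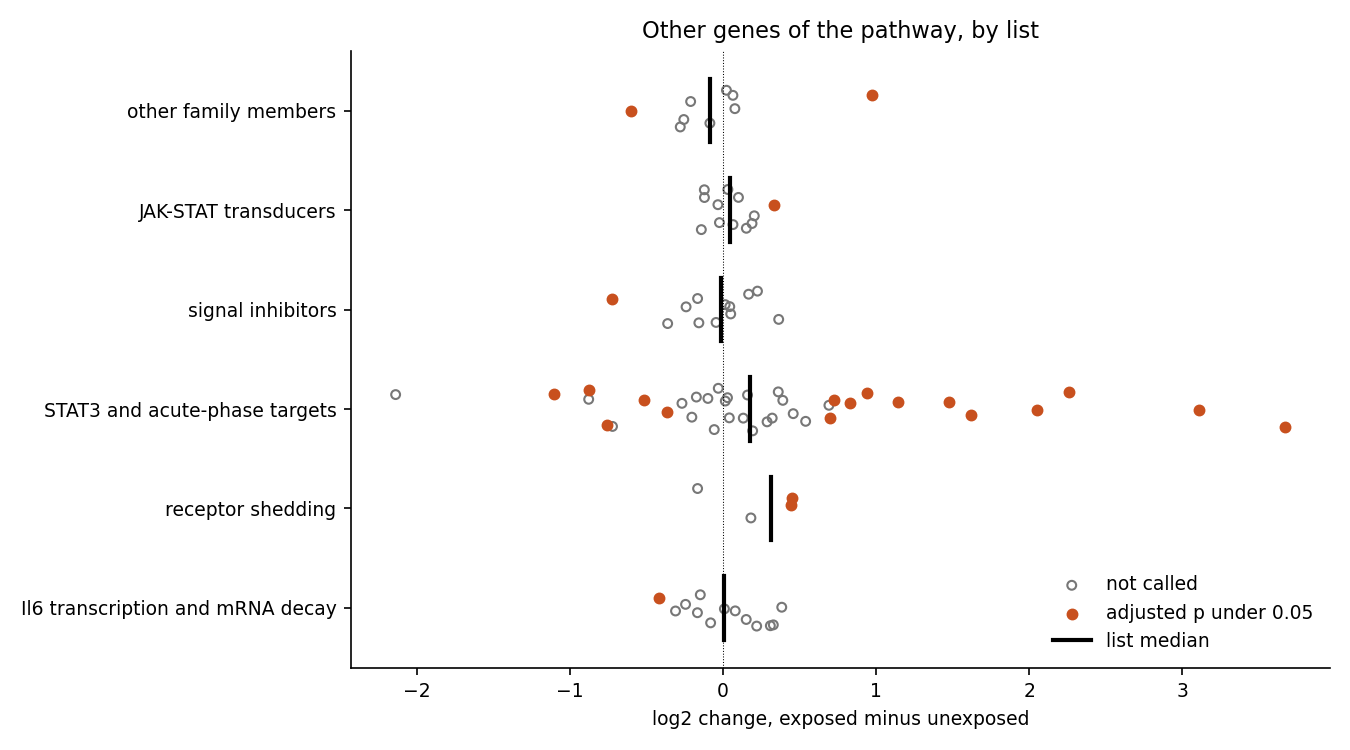
Log2 change (horizontal axis, exposed minus unexposed mice) of each measured gene in 6 lists of pathway genes (rows); filled points passed an adjusted p under 0.05, open points did not, and vertical bars are list medians. Most called genes belong to the list of STAT3 and acute-phase targets, which is the longest list, on either side of 0.

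Receptor shedding releases soluble IL-6 receptor, and its proteases Adam10 and Adam17 were both called higher among 4 genes measured (median 0.31). They made up 50% of this short list, beside 5.85% of all genes called higher. Adam10 had 8.91, 8.76, 8.73, 8.80 and 8.78 in exposed mice, against 8.36, 8.43, 8.47, 8.41 and 8.11 in unexposed mice. The groups did not overlap, with a rise of 1.36-fold (log2 change 0.44, SE 0.09, limma adjusted p = 0.011). Adam17 changed by 0.45 (SE 0.12, adjusted p = 0.0366) with overlapping groups, and leaving out any mouse but exposed mouse 3, exposed mouse 5 or unexposed mouse 2 ended the call (adjusted p between 0.0255 and 0.0846). The regulators Rhbdf1 and Rhbdf2 changed by -0.17 and 0.18 and did not pass (adjusted p of at least 0.264).

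Of 13 measured genes that control Il6 transcription or mRNA decay, none rose, Zfp36l1 fell and 12 did not pass (median 0.01). The share called lower was 7.7%, near the 4.97% of all genes. Zfp36l1, which encodes a protein that promotes decay of AU-rich mRNAs, had 9.02, 8.90, 9.07, 8.82 and 9.10 in exposed mice, against 9.34, 9.43, 9.39, 9.52 and 9.34 in unexposed mice. All exposed mice were lower, by 0.42 log2 units on average (SE 0.09, limma adjusted p = 0.011).

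Markers of several cell types differed between the groups along with Il6, Osmr and Socs3. The counts below stand beside 5.85% of all genes called higher and 4.97% called lower. Of 6 basal and squamous epithelial markers 5 rose, and the mean log2 value of all 6 was 8.66 to 10.06 in exposed mice and 5.67 to 6.59 in unexposed mice. The marker that did not pass was Trp63, with a change of -0.40. Of 6 macrophage markers 5 rose, with means of 7.77 to 8.70 in exposed mice and 6.75 to 7.41 in unexposed mice. Neutrophil markers rose for 2 of 6 (4.78 to 5.58 in exposed mice, 4.10 to 4.31 in unexposed mice) and platelet markers for 2 of 4 (6.90 to 8.07 in exposed mice, 5.39 to 5.92 in unexposed mice). The neutrophil calls were S100a8 (2.43) and S100a9 (1.59), while Ly6g, Cxcr2, Mpo and Camp did not pass. The platelet calls were Ppbp (5.05) and Pf4 (1.38), while Itga2b and Gp9 did not pass. These list means thus rest largely on the called genes. Fibroblast markers rose for 2 of 5, and smooth muscle, pan-epithelial and T and NK cell markers for 0 of 5, 6 and 5. Ciliated cell markers fell for 3 of 6, with means of 4.51 to 8.35 in exposed mice and 8.43 to 9.02 in unexposed mice, and secretory cell markers for 1 of 5, with the means given above. Of 5 endothelial markers 1 rose, of 5 cartilage markers 1 fell, and none of 3 B and plasma cell and 2 nerve and Schwann cell markers passed. The part of these cell types in the changes of Il6, Osmr and Socs3 was not tested.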

How the data were processed

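The deposited values are log2 intensities, 1 per probe set. Per the submitters' processing notes, the authors used Partek 6.6 and RMA, a method that corrects background, equalises arrays and averages probes; its settings are not stated. The log base was judged from the values. RMA shrinks large differences and gives no detection limit. Of 41345 probe sets, 23521 named 1 symbol in the platform annotation, 1814 named several and 16010 were not listed. A gene's value was the mean over its single-symbol probe sets; among the 9 genes followed, Socs3 had 2 and the others 1. Exposed mice were set against unexposed mice in R 4.3.3 by limma 3.58.1 with default lmFit and eBayes, two-sided and without covariates, and the fit was tested on simulated data. The number of arrays limits the precision. Pair differences used exact permutation over mice. The family members and lists were chosen with earlier results of these data known, so no test was run on a list. Of 96 listed pathway genes 88 were measured. The genes named from each pathway list were its called genes with the largest changes, at most 2 per direction, and for each called family member the 3 nearest profiles, leaving out gene models; other names are marked. Alternatives were another normalization, centring, a filter at a mean log2 value of 5, the brightest probe set, single probe sets, other moderation, array weights, mouse number blocks, a pan-epithelial covariate, mice left out, stricter thresholds and exact permutation per gene. Promoters come from RefSeq (GRCm38.p6); 9 of the 10 family genes had a window. Tables were made in Python 3.11.15 with pandas 2.3.3 and scipy 1.17.1, and figures with matplotlib 3.10.9.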

Additional observations from a re-analysis of the deposited data

Results flagged for a closer look

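Clcf1 in unexposed mouse 2 stood apart from its group, at a log2 intensity of 6.59, against 5.88 to 6.04 in the other unexposed mice. The gap was 0.771 of the group's range, above the 95% limit of Dixon's test for 5 samples (0.71). It was the only flag among 40 groups of 5 mice tested, where chance alone flags about 1 in 20.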

How the results depend on the processing

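Il6, Osmr and Socs3 were the called genes in all fits with 9 genes measured, except that Il11 joined them without exposed mouse 5. The count of higher genes in the family was 3 to 4 with a mouse left out, and the count of lower genes was 0 throughout. Where genes with a mean log2 value of 5 or less were left out, Il6, Il11 and Osm were not tested, and 2 of 6 genes were called higher. Over the alternatives in which each was fitted, single probe sets apart, the log2 change of Il6 was 2.19 to 2.65 (adjusted p 0.00014 to 0.00143), that of Osmr 1.12 to 1.33 (adjusted p 0.000173 to 0.00282) and that of Socs3 1.04 to 1.38 (adjusted p 2.82e-05 to 0.00136). The 1.38 for Socs3 came from its brightest probe set, and its other probe set by itself gave 0.82 (limma adjusted p = 0.000657). By exact permutation of single genes, without adjustment, p was 0.00794 for these 3 and 0.0635 for Il11. Signs turned, always with no call, for Il6st (-0.0861 to 0.0042 with a mouse left out, above 0 without exposed mouse 5), Lifr (-0.156 to 0.0028, above 0 without exposed mouse 2) and Osm (-0.0869 to 0.135, below 0 without exposed mouse 2 or 3 or unexposed mouse 1, and -0.035 without exposed mice 1 and 3 together); the cause was not tested. Over all genes, 944 to 1432 were called higher and 723 to 1407 lower with a mouse left out, of which 725 and 723 lower without unexposed mouse 1 or 4. At an adjusted p under 0.01 these counts were 619 and 435, and with at least a 2-fold change 411 and 349. With the mouse number as a replicate block, 1026 and 854 genes were called, and Il6, Osmr and Socs3 kept their calls (adjusted p = 0.00115, 0.00105 and 0.00136), while Zfp36l1 (adjusted p = 0.0567), Cntfr (0.0789), Stat3 (0.0815) and A2m (0.130) did not pass. Cntfr and A2m also lost their calls with quantile normalization (0.0557 and 0.0529) and with arrays centred on their medians (0.0552 and 0.0523), and A2m with trend and robust moderation (0.0512). Without exposed mice 1 and 3 together, Cntfr (0.0649), Stat3 (0.0645), Cish (0.0607) and Adam17 (0.0542) did not pass. Of the STAT3 and acute-phase targets, 2 were called lower with this block and 3 with arrays centred on their medians, against 5 without either. Mice of the same number did not deviate together (correlation of deviations -0.0488 to 0.125), and 1 of 5 exposed and 1 of 5 unexposed mice correlated best with their own number. These values gave no sign that the numbers pair mice. With 5 numbers they cannot exclude it. The pair differences kept their side of the threshold with a mouse left out, at 1.21 to 1.36 for Osmr against Il6st, 1.26 to 1.39 for Osmr against Lifr, 1.74 to 2.20 for Il6 against Il11 and -0.26 to -0.02 for Lif against Osm. The pair with Il11ra1 could not be computed. Low intensities with no detection limit leave the folds of Il6, Il11 and Osm uncertain.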
